A study of Mus musculus with 10 samples.

Results

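Transforming growth factor beta (TGF-β) added to stem cell factor (SCF) was compared with SCF alone in cultured mouse mast cells, with the TGF-β doses pooled. The comparison used 6 of the 10 libraries of the series, chosen by their labels: 2 libraries with SCF at 100 ng/mL, 2 with SCF and TGF-β at 1 ng/mL, and 2 with SCF and TGF-β at 10 ng/mL. The labels of the combined treatments do not state the SCF dose. The title of the series names a mucosal mast cell-like program, induced by TGF-β and licensed by SCF, as its subject. All cells were wild-type C57BL/6 bone marrow-derived mast cells, grown from marrow in interleukin-3 (IL-3) for 6 to 8 weeks and then stimulated for 72 h. For IL-3, the growth protocol states 5 ng/mL but the source label 10 ng/mL. The other 4 libraries, 2 with IL-3 alone and 1 for each TGF-β dose without SCF, entered the fit and a comparison near the end. The labels give ages of 6 to 8 weeks and no count of mice, and none says whether replicate numbers stand for separate cultures. The tests therefore weigh differences against the spread between these libraries, which may be technical.

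Mast cells are tissue-resident granulocytes that store proteases, histamine and proteoglycans in granules and release them when IgE receptors are crosslinked. SCF is the ligand of the receptor tyrosine kinase KIT and supports mast cell survival, growth and maturation. TGF-β binds type I and type II receptor serine kinases, which phosphorylate SMAD2 and SMAD3, and these act on target genes together with SMAD4. In rodent mucosal tissue TGF-β is known for inducing the chymases MCPT1 and MCPT2 and the integrin chain αE in mast cells, and for inhibiting the proliferation of many cell types.

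Counts assigned to genes ran from 1628524 to 2323916 in the 6 libraries (median 1912529), which was 23.2% to 26.6% of all counted read pairs. Between 37.2% and 43.2% had no unique alignment. The mast cell markers Kit, Fcer1a, Ms4a2, Cpa3, Tpsb2, Hdc, Gata2 and Mitf were found in all 6 libraries, and their summed level was 54930 and 62820 counts per 1000000 (CPM) with SCF alone and 35900 to 44220 CPM in the 4 libraries with TGF-β, where 4 of the 8 fell. Many markers of other lineages were absent: 6 of 8 neutrophil, 5 of 8 lymphocyte, 5 of 6 fibroblast, 4 of 8 macrophage and 4 of 6 eosinophil markers had no count in any of the 6. Basophil markers were all counted and summed to 681 and 719 CPM without and 658 to 770 CPM with TGF-β, Cd200r3 highest. The erythroid and platelet list, 4 of 10 at 0, summed to 1629 and 1844 CPM without and 1442 to 1757 CPM with it, Itga2b highest. The macrophage list summed to 24.6 and 33.5 CPM without and 13.1 to 26.1 CPM with TGF-β, and the dendritic cell list to 0.630 and 1.502 CPM without and 8.00 to 17.4 CPM with it, nearly all from Itgax. In bulk RNA, fewer cells expressing a gene and less RNA of it per cell cannot be told apart. On the first principal component of the 6 libraries (47.6% of the variance) both SCF libraries lay at -38.8 and -37.9 and the 4 TGF-β libraries between 10.9 and 25.1. The second (20.2%) separated the replicate numbers, with the 3 libraries numbered 1 between 16.1 and 19.8 and the 3 numbered 2 between -21.0 and -12.3.

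Genes in every range of expression changed when TGF-β was added to SCF. Of 11247 genes with enough counts, 1042 passed edgeR's quasi-likelihood test at an adjusted p under 0.05 (9.26%): 441 were higher with TGF-β (3.92%) and 601 lower (5.34%). The fold change reached 2-fold for 221 of the higher and 250 of the lower genes, and 8-fold for 26 and 22. The median change was 1.00 on the log2 scale among the genes called higher and -0.87 among those called lower, against 0.00054 over all genes tested. All 4 TGF-β libraries lay above both SCF libraries for 440 of the 441 higher genes and below both for 584 of the 601 lower genes. Over all genes tested the groups did not overlap in 15.4% upward and 15.7% downward. Protein-coding genes made up 428 of the higher and 567 of the lower genes, and long non-coding RNAs 11 and 30.

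**Figure D1:**
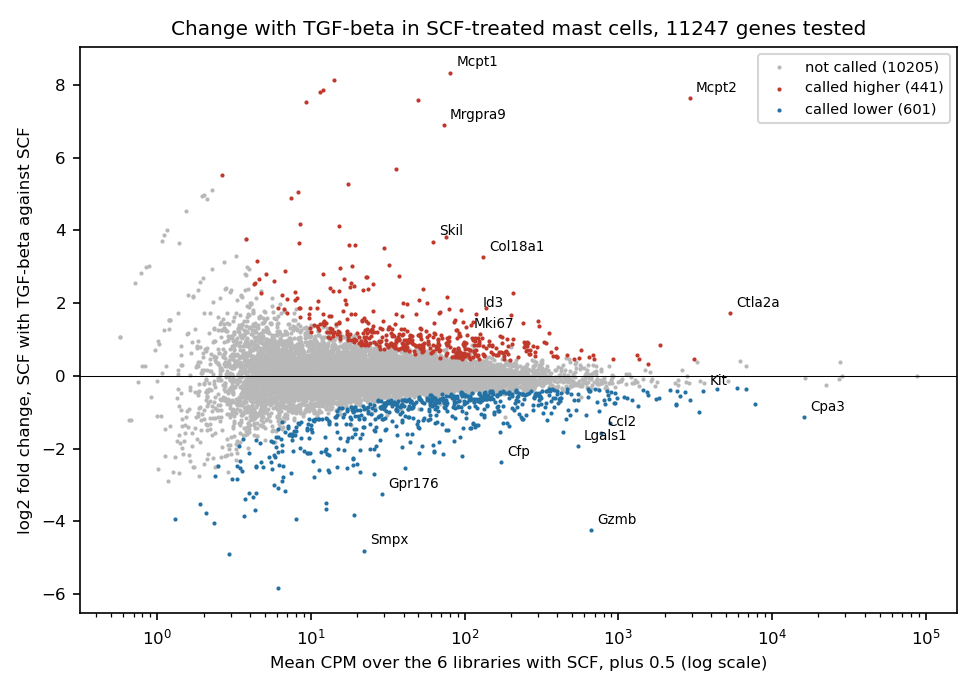
Each point is 1 of the 11247 genes tested, with its mean level over the 6 libraries with SCF on the x axis (CPM plus 0.5, log scale) and its log2 fold change with TGF-β on the y axis. Genes called higher (441) and lower (601) lie at all levels; the largest changes are rises, with Mcpt1 and Mcpt2 near 8, and Gzmb at -4.23 is the lowest among abundant genes.

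These calls rest on 2 control libraries. Without SCF library 1 the test called 206 genes higher and 310 lower, and without SCF library 2 it called 234 and 383. Of the 207 called genes chosen for description, 128 passed in each of the 6 fits that left out 1 library with SCF. Genes described below as rising or falling belong to those 128 unless a library or a number of fits is given. Values are CPM after TMM scaling, and a change is a log2 fold change ± its standard error (SE).

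Among the genes of the TGF-β pathway itself, 3 inhibitors rose and 1 receptor fell. Skil, which encodes the SMAD corepressor SnoN (chr3:31095058-31122577, plus strand of GRCm38), had 6.51 and 6.93 CPM with SCF alone, 65.7 and 79.5 CPM with 1 ng/mL and 107 and 105 CPM with 10 ng/mL. Both doses lay far above the controls and the 10 ng/mL libraries highest, with a log2 change of 3.69 ± 0.23 (SE) (adjusted p = 2.15e-08). Smad7, the inhibitory SMAD (chr18:75367529-75395935, plus strand), rose from 2.503 and 4.41 CPM to 12.2 and 11.3 CPM at the lower dose and 28.2 and 21.7 CPM at the higher (log2 change 2.33 ± 0.39 (SE), adjusted p = 7.04e-04). Ldlrad4, a membrane protein that limits SMAD phosphorylation (chr18:67933257-68268630, plus strand), rose from 1.001 and 1.26 CPM to 12.2 to 36.6 CPM (log2 change 4.11 ± 0.56 (SE)). These were the 3 of 9 tested inhibitors and repressors that passed; all 9 estimates were positive, with a median of 1.34. Of 13 ligands, receptors and signalling SMADs none rose, and Tgfbr1, the type I receptor, fell by 0.49 ± 0.13 (SE), a call kept in 2 of the 6 left-out fits. The helix-loop-helix genes Id3 and Id2 moved in opposite directions: Id3 rose (log2 change 1.71 ± 0.30 (SE)) and Id2 fell from 512 and 603 CPM to 317 to 372 CPM (log2 change -0.69 ± 0.11 (SE)). Of 13 TGF-β target genes tested, Id3 and Id2 included, 1 rose and 2 fell, with a median of 0.04.

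Of the 4 mucosal mast cell genes tested 3 rose steeply and 1 fell. The list of connective tissue mast cell genes was split: of 11 tested 2 rose and 3 fell, with a median of -0.05. Mcpt2, a mucosal chymase (chr14:56042041-56044642, plus strand), had 21.02 and 21.4 CPM with SCF alone, 3779 and 2874 CPM with 1 ng/mL and 6719 and 4049.6 CPM with 10 ng/mL TGF-β. Its log2 change was 7.64 ± 0.26 (SE) (adjusted p = 6.74e-12), and every TGF-β library lay far above both controls. Mcpt1, the neighbouring chymase gene (chr14:56017971-56020384, plus strand), had 1 count in the 2 SCF libraries together and 1006 in the 4 with TGF-β, 90.1 and 63.5 CPM at 1 ng/mL and 212 and 115 CPM at 10 ng/mL. The ratio of pooled normalised counts was 443 (95% counting interval 79.3 to 17506). Of the 38-base stretches of Mcpt1 (the read length), 3.68% also occur in other genes, most often in Mcpt2. Itgae, the αE integrin chain CD103 (chr11:73090583-73147446, plus strand), went from 3 counts to 441, with 28.2 and 26.7 CPM at the lower and 114 and 40.7 CPM at the higher dose and a ratio of 64.7 (95% counting interval 21.995 to 315). Its partner Itgb7 went the other way: 701 and 783 CPM with SCF alone and 328 to 375 CPM with TGF-β, a log2 change of -1.06 ± 0.12 (SE) (adjusted p = 1.26e-05).

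The promoter of Mcpt1 is shown as that of the gene with the largest ratio among those named here. It spans 250 bases before to 50 bases after the transcription start in RefSeq (GRCm38.p6, chr14:56017714-56018013, plus strand), and the capitals mark CAGAC, the short SMAD-binding letters, searched on both strands.
Mcpt1: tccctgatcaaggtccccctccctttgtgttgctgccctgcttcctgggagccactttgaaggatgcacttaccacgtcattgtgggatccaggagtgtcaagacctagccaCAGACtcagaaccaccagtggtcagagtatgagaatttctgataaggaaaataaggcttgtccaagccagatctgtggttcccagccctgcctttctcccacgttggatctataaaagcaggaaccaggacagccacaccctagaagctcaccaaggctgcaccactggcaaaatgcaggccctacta
CAGAC occurred in 50.6% of the 429 promoters of genes called higher, 47.7% of the 591 of genes called lower, 47.1% of the 10718 of genes tested and 49.6% of all 32851. The share among genes that rose was thus close to that among all promoters. The palindrome GTCTAGAC was present in 0.466%, 0.677%, 0.252% and 0.213% of the same sets. A match describes letters in this window only.

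Other integrin chains also rose. Itga7, a laminin-binding chain, had no count in either SCF library and 146 counts in the TGF-β libraries, 7.12 to 33.5 CPM, which is at least 21.4-fold higher when 3 counts over both controls are taken as the floor. Itgax, the CD11c chain, had 1 count with SCF alone and 7.06 to 16.5 CPM with TGF-β, a ratio of 37.4 (95% counting interval 6.54 to 1495). Itgb2, the β2 chain that pairs with CD11c, fell from 148 and 106 CPM to 21.003 to 55.6 CPM (log2 change -2.08 ± 0.24 (SE), adjusted p = 2.03e-05). In all, 3 of 12 integrin genes tested rose and 2 fell. In each of the 3 that rose every TGF-β library was above both controls, as in 440 of the 441 genes called higher.

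**Figure D2:**
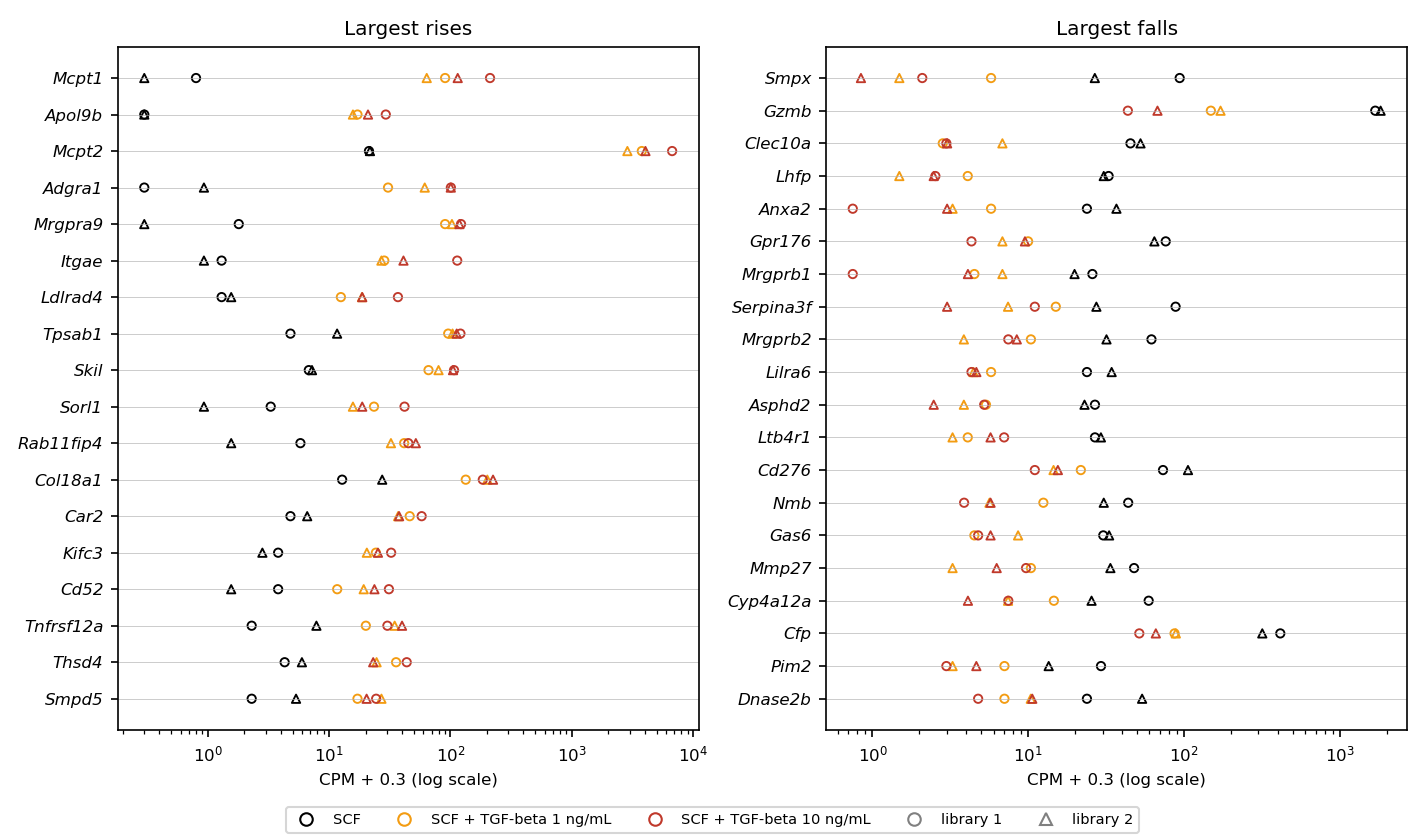
Points are the CPM (plus 0.3, log scale) of each library for 18 of the 20 largest rises (left) and the 20 largest falls (right) among called genes of at least 20 CPM whose groups do not overlap, with the library number shown by symbol. SCF libraries (black) are apart from all TGF-β libraries (orange 1 ng/mL, red 10 ng/mL) in every row.

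Several of the 20 largest rises were in genes on none of the lists of mast cell proteases and integrins. Apol9b, an apolipoprotein L family gene, had no count with SCF alone and 15.4 to 29.05 CPM with TGF-β, at least 24.8-fold higher. Of its 38-base stretches 59.3% occur also in other genes, most often in Apol9a. Pairs without a unique alignment were not counted, so its level may be understated. Adgra1, an orphan G protein-coupled receptor of the adhesion class, had 1 count in the controls and 30.3 and 61.1 CPM at the lower and 101 and 100.5 CPM at the higher dose, a ratio of 257 (95% counting interval 46.03 to 10187). Mrgpra9, a Mas-related receptor gene, went from 3 counts to 90.1 to 122 CPM, a ratio of 129 (95% counting interval 43.9 to 626). It shares 22.2% of its stretches with other genes, most often Mrgpra6. All 3 were near 0 in the controls and clearly counted in every TGF-β library. The rule that picked the 20 largest rises required that the groups not overlap.

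Further large rises were in genes that the control libraries also expressed. Col18a1, the collagen XVIII chain from which endostatin is cut (chr10:77052178-77166548, minus strand), had 12.5 and 27.1 CPM with SCF alone, 133 and 201 CPM with 1 ng/mL and 185 and 224 CPM with 10 ng/mL, so that the doses overlapped and the controls did not (log2 change 3.26 ± 0.26 (SE), adjusted p = 4.83e-07). Tpsab1, the gene of the tryptase MCPT7, rose from 4.51 and 11.3 CPM to 95.6 to 121 CPM (log2 change 3.81 ± 0.26 (SE)). Tpsb2, a more abundant tryptase gene, did not pass. It had 18210 and 15124 CPM with SCF alone and 14687 to 17880 CPM with TGF-β (log2 change -0.05 ± 0.11 (SE)). Sorl1, a sorting receptor of endosomes, and Rab11fip4, an effector of the recycling endosome GTPase RAB11, changed by 3.61 ± 0.53 (SE) and 3.52 ± 0.36 (SE). Car2, carbonic anhydrase II, rose from 4.51 and 6.303 CPM to 36.8 to 57.6 CPM. Tnfrsf12a, the receptor of the cytokine TWEAK, changed by 2.73 ± 0.41 (SE), Cd52, a small GPI-anchored glycoprotein, by 2.97 ± 0.43 (SE), and Kifc3, a minus-end kinesin, by 3.02 ± 0.38 (SE). Among abundant genes the largest rise after Mcpt2 was Ctla2a, a cysteine protease inhibitor related to cathepsin propeptides. It had 2377 and 1858 CPM in the controls. With TGF-β it had 6809 and 6251 CPM at 1 ng/mL and 8256 and 6606 CPM at 10 ng/mL (log2 change 1.72 ± 0.13 (SE)). Of its stretches 35.0% are shared with other genes, most often Gm49391.

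Matrix genes rose and fell. Of 18 tested, Col18a1 and Adamts5, an aggrecan-cleaving protease (6.01 and 5.67 CPM to 28.5 to 42.9 CPM, log2 change 2.53 ± 0.28 (SE)), were 2 of the 3 that rose, and 5 fell. The changes of Vcan, the proteoglycan versican, and Plaur, the urokinase receptor, -1.20 and -1.32, were no longer called without SCF library 2 (adjusted p = 0.112 and 0.0987), nor was that of the metalloprotease Adam8 (-0.86 ± 0.18 (SE); adjusted p = 0.187). The count of 5 became 3 without SCF library 1 and 1 without SCF library 2.

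The steepest fall in an abundant gene was in Gzmb, the serine protease granzyme B (chr14:56258838-56262260, minus strand). It had 1693 and 1832 CPM with SCF alone, 149 and 172 CPM with 1 ng/mL and 43.3 and 67.3 CPM with 10 ng/mL TGF-β, with all 3 groups apart (log2 change -4.23 ± 0.17 (SE), adjusted p = 7.47e-11). Cpa3, the mast cell carboxypeptidase, fell from 26737 and 23525 CPM to 10102 to 13730 CPM (log2 change -1.14 ± 0.10 (SE), adjusted p = 8.29e-07). Ctsg, cathepsin G, fell from 71.6 and 90.8 CPM to 23.2 to 29.1 CPM, and Ctsd, the lysosomal aspartic protease cathepsin D, from 3366 and 3131 CPM to 1756 to 2070.4 CPM. The mucosal chymases and the tryptases, Mcpt1, Mcpt2 and Tpsab1 among them, were on other lists and are described above. Of the 11 other granule proteases tested 4 fell and none rose, in the fit of all libraries and in each of the 6 left-out fits.

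Other steep falls were in surface receptors and secreted proteins. Clec10a, a macrophage-type lectin for galactose residues, fell from 45.1 and 52.3 CPM to 2.53 to 6.53 CPM (log2 change -3.81 ± 0.31 (SE)). Smpx, a small muscle protein, fell from 93.6 and 26.5 CPM, values that differ between the 2 controls, to 0.543 to 5.47 CPM (log2 change -4.81 ± 0.57 (SE)). Cfp, the complement protein properdin, fell from 416 and 318 CPM to 86.7 and 88.4 CPM at the lower and 51.4 and 65.7 CPM at the higher dose (log2 change -2.36 ± 0.15 (SE), adjusted p = 2.15e-08). The rule that picked the 20 largest falls, these 3 among them, required that every TGF-β library lie below both controls. Cd276, the immune checkpoint ligand B7-H3, changed by -2.54 ± 0.22 (SE), Gas6, the ligand of the TAM receptor kinases, by -2.52 ± 0.27 (SE), and Nmb, the peptide neuromedin B, by -2.53 ± 0.28 (SE). Lgals1, the lectin galectin-1, fell from 897 and 1234 CPM to 199.8 to 341 CPM (log2 change -1.93 ± 0.14 (SE)), Anxa2, the phospholipid-binding annexin A2, from 23.5 and 36.6 CPM to 0.447 to 5.47 CPM, and Anxa5 from 582 and 786 CPM to 279 to 424 CPM. In the list of galectins and annexins 5 of 17 fell and none rose, with a median of -0.27.

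Genes for stored amines and granule proteoglycan were lower. Hdc, histidine decarboxylase, the enzyme that makes histamine, had 123 and 82.6 CPM with SCF alone, 27.4 and 22.6 CPM with 1 ng/mL and 23.7 and 35.3 CPM with 10 ng/mL, so that every TGF-β library was under the lower control (log2 change -1.93 ± 0.19 (SE), adjusted p = 3.86e-06). Srgn, the core protein serglycin that holds granule contents, fell from 4863 and 5030.5 CPM to 2295 to 2706 CPM (log2 change -0.98 ± 0.09 (SE), adjusted p = 2.57e-06). Ndst2 and Hs3st1, which sulfate heparin chains, changed by -1.03 ± 0.17 (SE) and -1.33 ± 0.15 (SE). Of 7 histamine and serotonin genes 4 fell and 1 rose: Hrh4, the histamine H4 receptor, changed by -1.61 ± 0.19 (SE) and Maob, monoamine oxidase B, by -0.69 ± 0.11 (SE). Tph1, which makes the serotonin precursor, fell by 0.33, and this call was lost in every left-out fit. The one gene of this list that rose was Ddc, the decarboxylase of the next step (47.1 and 75.6 CPM to 102 to 123 CPM, log2 change 0.93 ± 0.18 (SE)), with an adjusted p of 0.0939 without SCF library 1. Of 17 serglycin and glycosaminoglycan genes 4 fell and 1 rose.

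Components of IgE receptor signalling fell more often than they rose. Of 21 tested, 8 fell and 1 rose, and between 6 and 7 fell with any 1 library left out. Fcer1a, the IgE-binding chain, fell from 11020 and 10148 CPM to 7168 and 6277 CPM at 1 ng/mL and 6016 and 5487 CPM at 10 ng/mL (log2 change -0.77 ± 0.10 (SE), adjusted p = 4.10e-05). Rasgrp4, a RAS activator of mast cells, Plcg1, phospholipase Cγ1, Stim1, the calcium sensor of the endoplasmic reticulum, and the adaptor Lat2 changed by -1.45, -1.14, -0.72 and -0.59. For each of these genes all 4 TGF-β libraries lay below both controls, as for 584 of the 601 genes called lower.

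Receptors of growth factors and cytokines fell by differing amounts. Kit fell by 0.42 ± 0.10 (SE), from 4594 and 3951 CPM to 3092 to 3299 CPM, with an adjusted p of 0.0132 that rose to as much as 0.237 without SCF library 1 or 10 ng/mL library 1. Il2ra, the α chain of the interleukin-2 receptor, fell from 26.03 and 22.1 CPM to 3.58 to 7.58 CPM (log2 change -2.01 ± 0.28 (SE)). Of 19 cytokine receptors 6 fell and none rose; the 6 became 1 without SCF library 1, 3 without SCF library 2, 2 without 1 ng/mL library 2, 2 without 10 ng/mL library 1 and 3 without 10 ng/mL library 2. Among targets and inhibitors of STAT5, 4 of 13 fell: Osm, the cytokine oncostatin M, from 371 and 289 CPM to 99.1 to 171 CPM (log2 change -1.38 ± 0.18 (SE)), and the kinases Pim1 and Pim2 and the inhibitor Socs1, whose calls were lost without SCF library 1 (adjusted p = 0.362, 0.0543 and 0.052). Of 28 mast cell transcription factors 1 rose and 1 fell. Runx3, a RUNX family factor, rose from 97.1 and 117 CPM to 158 to 186 CPM (log2 change 0.65 ± 0.14 (SE); adjusted p = 0.116 without SCF library 1).

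Chemokine genes were lower with TGF-β. Ccl2, which attracts monocytes (chr11:82035571-82037453, plus strand), had 1409.7 and 1336 CPM with SCF alone. It had 549 and 525 CPM with 1 ng/mL and 361 and 445 CPM with 10 ng/mL (log2 change -1.56 ± 0.11 (SE), adjusted p = 1.64e-07). The 3 groups were apart, but Ccl2 did not pass between the doses (difference -0.42 ± 0.14 (SE)). Ccl7, its neighbour in the gene cluster, fell from 184 and 151 CPM to 49.2 to 68.96 CPM and Ccl4 from 25.5 and 25.2 CPM to 4.02 to 7.16 CPM. Ccl3 fell by 1.20 ± 0.23 (SE), with an adjusted p of 0.105 without SCF library 1. These were 4 of the 6 chemokine genes tested; all 6 estimates were negative, with a median of -1.31. Of 10 cytokine genes 3 fell and 1 rose. The rise was in Il6 (69.6 and 56.1 CPM to 92.6 to 103 CPM, log2 change 0.64 ± 0.15 (SE); adjusted p = 0.158 without SCF library 2), and Lif and Il4 changed by -1.30 and -1.18, calls lost without SCF library 1.

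Prostaglandin and leukotriene genes divided. Ptgs1, cyclooxygenase 1, rose from 213 and 214 CPM to 368 to 419 CPM (log2 change 0.91 ± 0.14 (SE), adjusted p = 3.84e-04). Ltc4s, leukotriene C4 synthase, fell from 32.5 and 30.3 CPM to 16.8 and 14.2 CPM at 1 ng/mL and 8.49 and 8.14 CPM at 10 ng/mL (log2 change -1.45 ± 0.23 (SE)). Alox5ap, the activating protein of 5-lipoxygenase, rose by 0.57 ± 0.12 (SE), with an adjusted p of 0.0855 without SCF library 2, and the prostaglandin receptor Ptger3 fell by 0.69 ± 0.12 (SE). Of 11 genes tested 2 rose and 3 fell.

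Receptors for peptides, lipids and nucleotides were among the genes most often changed. Of 36 G protein-coupled receptors tested, 13 fell and 5 rose, with a median of -0.30; the 13 became 7 without either SCF library and 8 without 10 ng/mL library 1. Mrgprb2, the mast cell receptor for basic secretagogues, had 61.6 and 31.5 CPM with SCF alone and 3.56 to 10.1 CPM with TGF-β (log2 change -2.66 ± 0.32 (SE)), and its neighbour Mrgprb1 changed by -2.78 ± 0.44 (SE). Gpr176, an orphan receptor, fell from 76.1 and 64.3 CPM to 4.02 to 9.68 CPM (log2 change -3.26 ± 0.23 (SE), adjusted p = 1.03e-07). Ltb4r1, the leukotriene B4 receptor, fell from 26.5 and 28.99 CPM to 2.97 to 6.703 CPM, and Ccr1, a receptor of CCL3, from 173 and 165 CPM to 38.6 to 74.5 CPM. P2ry1, an ADP receptor, rose from 45.6 and 57.4 CPM to 107 to 118 CPM (log2 change 1.13 ± 0.15 (SE)). For each of these the 4 TGF-β libraries lay on 1 side of both controls, as for nearly all called genes.

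Ion channel genes changed in both directions. Kcnn4, the calcium-activated potassium channel of mast cells, rose from 168 and 219 CPM to 365 to 467 CPM (log2 change 1.17 ± 0.15 (SE), adjusted p = 7.46e-05). The proton channel Hvcn1, the cation channels Trpv2 and Trpm2, and the ATP-gated channels P2rx1 and P2rx7 fell, with changes of -1.28, -1.17, -2.08, -0.86 and -0.76. Of 20 channels tested 6 fell, the same number in each left-out fit, and 2 rose.

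Inhibitory and other immune receptors fell in 7 of 21 cases and rose in 1. Besides Clec10a, the paired receptor Pirb fell from 368 and 395 CPM to 149 to 209 CPM and Milr1, an inhibitory receptor of mast cells, from 49.1 and 39.7 CPM to 13.9 to 18.1 CPM. Cd274, the ligand PD-L1, changed by -1.24 ± 0.20 (SE) and the siglec Cd33 by -0.94 ± 0.12 (SE). Pirb shares 42.2% of its 38-base stretches with other genes, most often Lilra6. Lilra6 and Pira2, which were also lower, share 42.4% and 96.0%, most often with Pirb. Pairs without a unique alignment were not counted, so the levels of these genes may be understated.

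Genes of the cell division cycle were higher with TGF-β. All 42 mitosis genes tested had positive estimates, with a median of 0.82, and 26 passed the test; of 42 DNA replication genes 41 were positive, with a median of 0.71, and 17 rose while 1 fell. Mki67, the proliferation antigen Ki-67 (chr7:135689784-135716361, minus strand), had 51.6 and 63.7 CPM with SCF alone, 118 and 137 CPM with 1 ng/mL and 127 and 122 CPM with 10 ng/mL, both doses at one level above the controls (log2 change 1.13 ± 0.19 (SE), adjusted p = 6.28e-04). Kif23, a kinesin of the central spindle, rose from 26.5 and 30.9 CPM to 48.4 to 68.4 CPM, Ccnb2, cyclin B2, from 95.6 and 80.05 CPM to 152 to 185 CPM, and the spindle protein Nusap1 from 53.6 and 52.3 CPM to 97.9 to 129.97 CPM. Among replication genes, Tyms, thymidylate synthase, rose from 81.1 and 110.3 CPM to 168 to 245 CPM (log2 change 1.11 ± 0.17 (SE)), Lig1, DNA ligase 1, from 44.1 and 47.9 CPM to 87.6 to 130.3 CPM, Gins2, of the replicative helicase, from 63.1 and 59.9 CPM to 110.3 to 118 CPM, and the helicase subunit Mcm6 by 0.83 ± 0.14 (SE). In 41 of the 42 mitosis genes and 35 of the 42 replication genes all 4 TGF-β libraries were above both controls. Over all genes tested this share was 15.4%. All members were measured against the same controls.

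The count of called mitosis genes depended on single libraries while the estimates did not change sign. The 26 became 4 without SCF library 1, 12 without SCF library 2, 17 without 1 ng/mL library 2 and 12 without 10 ng/mL library 2, and DESeq2 called 11. The median of the 42 stayed between 0.73 and 0.92 in the 6 left-out fits, all 42 positive each time. The 17 replication genes became 5, 11 and 10 without SCF library 1, 1 ng/mL library 2 and 10 ng/mL library 2, and DESeq2 called 8. The summed level of the mitosis genes was 1854 and 2095 CPM with SCF alone, 3144 and 3728 CPM with 1 ng/mL and 3405 and 3968 CPM with 10 ng/mL, and library 2 was above library 1 in each of the 3 groups. It was 948 and 349.5 CPM with IL-3 alone and 567 and 1302 CPM in the 2 libraries with TGF-β and no SCF, values that overlap.

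**Figure D3:**
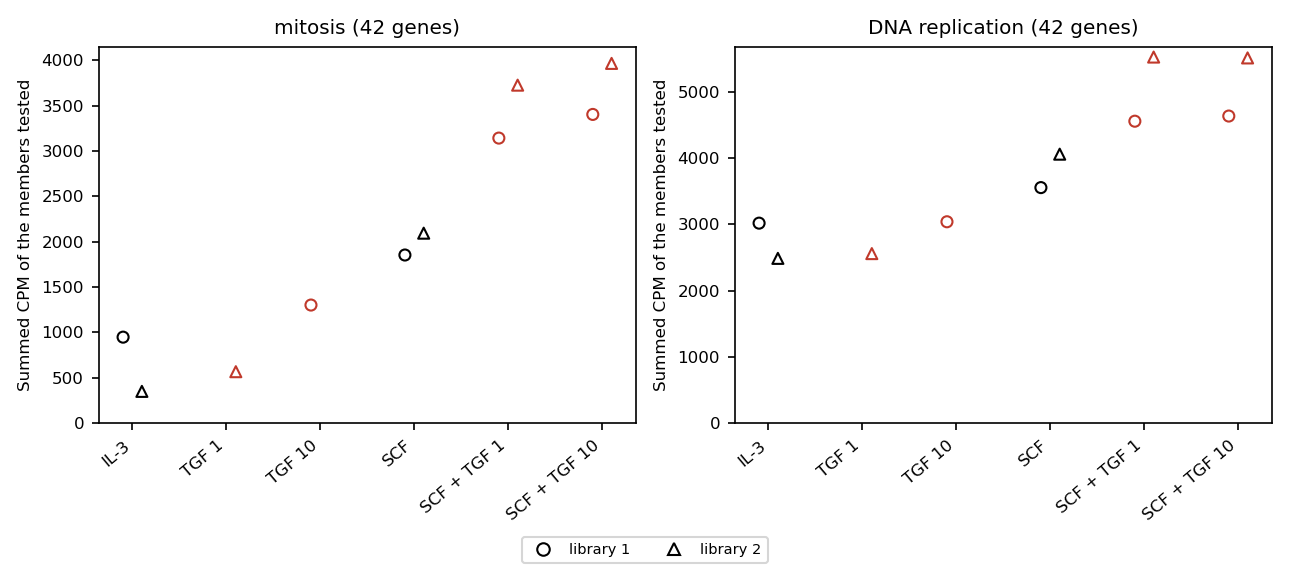
Summed CPM of the 42 mitosis genes (left) and 42 DNA replication genes (right) in each of the 10 libraries by treatment, TGF-β dose in ng/mL; circles are library 1 and triangles library 2, red with TGF-β. With SCF the TGF-β libraries (3144 to 3968 CPM for mitosis) are above both SCF libraries; without SCF the TGF-β and IL-3 libraries overlap.

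Regulators of the G1 phase did not move as a group: 2 of 24 rose and 2 fell. Ccnd2, cyclin D2, fell from 1005 and 1256 CPM to 578 to 728 CPM (log2 change -0.79 ± 0.12 (SE), adjusted p = 3.40e-04). Rbl1, the retinoblastoma relative p107, rose by 1.31 ± 0.28 (SE), with an adjusted p of 0.0872 without SCF library 2. Of 12 BCL2 family genes 1 rose and 1 fell, each call lost in at least 4 of the left-out fits.

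The promoters of the 3 mitosis genes with the smallest adjusted p and a RefSeq entry are shown, because most promoters of the list hold the same letters. Mki67 lies at chr7:135716330-135716629, minus strand, Kif23 at chr9:61946750-61947049, minus strand and Ccnb2 at chr9:70421505-70421804, minus strand (GRCm38.p6). Capitals mark TTTGAA, known as the CHR element of late cell cycle genes, and CCAAT, on either strand, where ATTGG is CCAAT on the other strand.
Mki67: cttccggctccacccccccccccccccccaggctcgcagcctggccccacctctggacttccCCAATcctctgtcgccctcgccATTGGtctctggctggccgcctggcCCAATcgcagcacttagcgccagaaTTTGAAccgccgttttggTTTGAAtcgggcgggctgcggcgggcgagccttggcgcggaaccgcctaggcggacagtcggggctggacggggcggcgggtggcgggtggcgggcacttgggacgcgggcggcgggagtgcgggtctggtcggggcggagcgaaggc
Kif23: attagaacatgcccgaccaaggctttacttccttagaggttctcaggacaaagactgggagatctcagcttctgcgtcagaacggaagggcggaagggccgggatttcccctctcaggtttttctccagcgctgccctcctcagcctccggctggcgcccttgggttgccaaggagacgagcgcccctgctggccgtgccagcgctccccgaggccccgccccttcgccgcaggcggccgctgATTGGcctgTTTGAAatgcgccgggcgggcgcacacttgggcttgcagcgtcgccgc
Ccnb2: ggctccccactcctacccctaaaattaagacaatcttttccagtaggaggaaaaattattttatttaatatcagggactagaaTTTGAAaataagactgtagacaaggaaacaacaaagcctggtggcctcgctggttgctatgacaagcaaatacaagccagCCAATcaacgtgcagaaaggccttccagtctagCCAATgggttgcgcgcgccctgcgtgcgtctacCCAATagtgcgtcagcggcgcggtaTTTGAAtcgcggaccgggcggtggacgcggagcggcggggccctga
Mki67 and Ccnb2 each hold 2 TTTGAA and 3 CCAAT, and Kif23 has 1 of each. TTTGAA occurred in 75.7% of the 37 promoters of the mitosis list, 7.89% of the 38 of the DNA replication list, 19.3% of those of all genes called higher, 10.7% of those called lower, 12.4% of the genes tested and 17.9% of all promoters. CCAAT occurred in 78.4% of the mitosis and 63.2% of the replication promoters, against 38% of those of the genes tested and 37.4% of all. TTCCCGC, the letters of an E2F site, occurred in 39.5% of the replication promoters, in none of the 37 mitosis promoters, in 8.4% of those of the genes tested and in 4.6% of all. Of the 2 replication genes with the smallest adjusted p and a RefSeq entry, Mcm6 holds 2 CCAAT and no TTCCCGC, and Tyms neither.

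Lysosomal genes fell. Of 41 enzymes and membrane proteins of the lysosome tested, 17 fell and 1 rose, and 35 estimates were negative, with a median of -0.41. The 17 became 10 without SCF library 1 and 11 without SCF library 2. Glb1, the β-galactosidase of the lysosome (chr9:114401076-114474898, plus strand), had 353 and 260.3 CPM with SCF alone, 153 and 123 CPM with 1 ng/mL and 121 and 109.7 CPM with 10 ng/mL (log2 change -1.28 ± 0.14 (SE), adjusted p = 1.01e-05). Ids, which removes sulfate from heparan and dermatan sulfate, fell from 91.6 and 95.8 CPM to 35.3 to 50.1 CPM, Neu1, a sialidase, from 78.6 and 92.7 CPM to 35.8 to 51.6 CPM, and Smpd1, acid sphingomyelinase, from 110.1 and 103 CPM to 49.6 to 73.3 CPM. Hexa, the β-hexosaminidase chain, and Atp6ap1, of the proton pump, changed by -0.58 ± 0.11 (SE) and -0.62 ± 0.11 (SE). The one member that rose was Cd63, a granule tetraspanin (2510.5 and 2461 CPM to 3303 to 3667 CPM, log2 change 0.46 ± 0.10 (SE); adjusted p as high as 0.0693 without an SCF library). The summed level of the list went from 9660 and 9432 CPM to between 8424 and 8993 CPM, a sum that includes the rise of Cd63.

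The promoter of Glb1, the lysosomal gene with the smallest p, is shown for its E-box-type palindrome (chr9:114400828-114401127, plus strand, GRCm38.p6), in capitals.
Glb1: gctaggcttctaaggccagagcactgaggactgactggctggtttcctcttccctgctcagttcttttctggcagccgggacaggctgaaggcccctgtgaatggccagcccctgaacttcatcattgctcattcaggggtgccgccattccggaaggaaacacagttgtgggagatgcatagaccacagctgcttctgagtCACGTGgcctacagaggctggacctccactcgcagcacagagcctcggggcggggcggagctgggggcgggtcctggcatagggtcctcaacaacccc
CACGTG was present in 31.2% of the 32 promoters of the lysosomal list, 9.48% of those of all genes called lower, 10.1% of the genes tested and 7.15% of all promoters. It was not among the letters of the window of Ids, the next gene of the list by p.

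Genes of glycolysis and the hypoxia response were lower, 7 of 30 with none higher and 25 estimates negative. Ndrg1, a hypoxia-inducible gene, fell from 116 and 88.9 CPM to 17.4 to 28.2 CPM (log2 change -2.13 ± 0.18 (SE), adjusted p = 8.42e-07). Slc2a3, the glucose transporter GLUT3, fell from 208 and 202 CPM to 71.5 to 92.6 CPM, and Pkm, pyruvate kinase, from 883 and 1000.3 CPM to 391 to 541 CPM. The collagen prolyl hydroxylase chains P4ha1 and P4ha2 changed by -0.82 ± 0.14 (SE) and -1.46 ± 0.26 (SE). Among 147 solute carriers 9 rose and 11 fell, a share of 13.6%. Slc27a1, a fatty acid transporter, rose from 42.6 and 45.4 CPM to 102 to 159 CPM (log2 change 1.48 ± 0.17 (SE)), Slc39a4, a zinc importer, rose by 1.10 ± 0.19 (SE), and Slc45a3 fell from 297 and 303 CPM to 80.4 to 125 CPM. The 9 that rose became 3, 4 and 5 without SCF library 1, SCF library 2 and 10 ng/mL library 1, and the 11 that fell became 7 without SCF library 1.

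Chaperones of the endoplasmic reticulum and genes of antigen presentation were lower by small amounts. Of 27 chaperone and unfolded protein response genes 7 fell and none rose, with 23 negative; the 7 became 1 without SCF library 2, 3 without 1 ng/mL library 1, 3 without 10 ng/mL library 1 and 4 without 10 ng/mL library 2. Ero1l, the oxidase that renews disulfide isomerase, fell from 1164 and 1382 CPM to 761 to 906 CPM (log2 change -0.61 ± 0.11 (SE)). Of 14 antigen presentation genes 6 fell and none rose; the 6 became 1 and 3 without SCF library 1 and SCF library 2. H2-D1, a class I heavy chain, fell from 1272 and 1325 CPM to 723 to 852 CPM (log2 change -0.73 ± 0.10 (SE)). Of its stretches 21.8% are shared with other genes, most often H2-K1. B2m, the class I light chain, fell by 0.64 ± 0.13 (SE), with an adjusted p of 0.104 without SCF library 1.

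Enzymes that build glycans changed in both directions. Mgat5, which adds the β1,6 branch of N-glycans, rose from 17.5 and 22.7 CPM to 42.95 to 54.8 CPM (log2 change 1.29 ± 0.20 (SE)), while Fut8, which adds the core fucose, fell from 225 and 166 CPM to 62.4 to 112 CPM and the sialyltransferase St3gal1 from 43.6 and 31.5 CPM to 10.5 to 14.7 CPM. Of 28 glycosyltransferases 4 rose and 4 fell; the 4 that rose became 1 without SCF library 1 and 2 without SCF library 2, 1 ng/mL library 1 or 10 ng/mL library 1. Among 31 genes of granule exocytosis, Sytl2, a RAB27 effector, rose by 1.04 ± 0.16 (SE) and 5 fell, among them Rab32 and Rab38, GTPases of lysosome-related organelles, with changes of -0.76 and -0.76. The 5 became 2, 3 and 3 without SCF library 1, SCF library 2 and 1 ng/mL library 2.

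**Figure D4:**
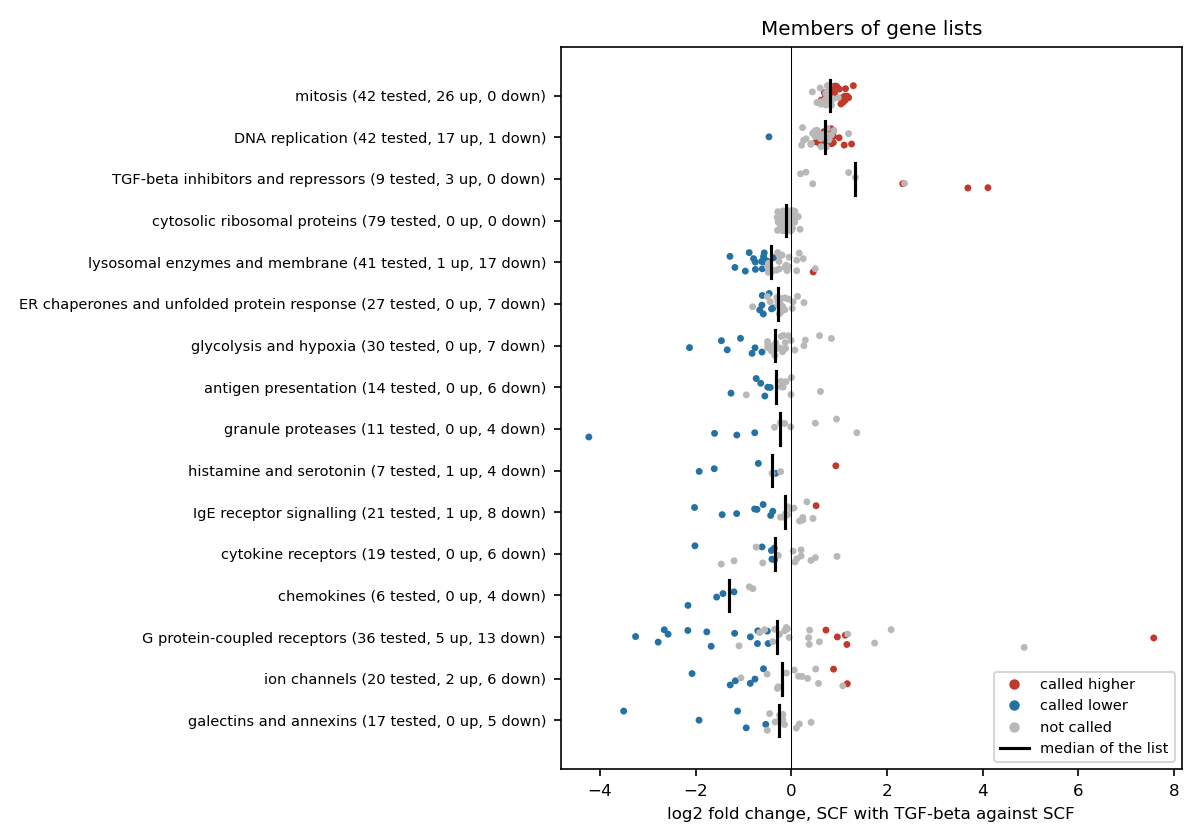
Points are the log2 fold changes of the tested members of 16 gene lists, coloured by call, with a bar at each list's median. The mitosis and DNA replication lists lie to the right of 0, with medians of 0.82 and 0.71, and the cytosolic ribosomal proteins lie close to 0 with no call.

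Several gene groups showed few or no calls. In the lists described above as having falls and no rise, edgeR gave between 0 and 3 higher members at an unadjusted p under 0.05, and DESeq2 and limma-voom called no member higher. None of 79 cytosolic ribosomal protein genes, 7 mitochondrial genome genes and 12 Notch and Wnt genes passed edgeR's test, and DESeq2 and limma-voom called none either. At an unadjusted p under 0.05 there were 2 ribosomal protein genes, both lower, no mitochondrial gene, and 2 Notch and Wnt genes, both higher. The medians were -0.10, -0.11 and 0.22. Of 77 nuclear respiratory chain genes 2 fell, of 24 sterol synthesis genes 2, of 17 interferon-stimulated genes 1 and of 19 immediate early genes 2. Each of these shares except that of the immediate early genes, 10.5%, was below the 9.26% of all genes. Most estimates were negative in 3 of these groups. They were negative for 61 and positive for 16 respiratory chain genes, 64 and 15 ribosomal protein genes, and 19 and 5 sterol synthesis genes. At an unadjusted p under 0.05 in edgeR's test, 12 respiratory chain genes were lower and 0 higher. Dusp1, a phosphatase that ends MAP kinase signalling and an early response gene, fell from 93.1 and 56.7 CPM to 20.2 to 29.9 CPM (log2 change -1.61 ± 0.24 (SE)).

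The doses differed in few genes by a direct test. With 2 libraries each, 2 of 11247 genes passed between 10 and 1 ng/mL (0.0178%), and 313 had an unadjusted p under 0.05. DESeq2 and limma-voom called none, with 46 and 306 at an unadjusted p under 0.05. Each of these unadjusted counts is a smaller share of the genes tested than the 0.05 of the threshold. Id3 had 33.04 and 45.4 CPM with SCF alone, 47.2 and 86.1 CPM with 1 ng/mL and 328 and 167 CPM with 10 ng/mL, a difference between doses of 1.93 ± 0.30 (SE) on the log2 scale (adjusted p = 0.0349). With SCF the 3 groups did not overlap for this gene, and the 10 ng/mL libraries were highest. The dose call of Id3 was lost without 1 ng/mL library 1 and without 10 ng/mL library 1, and that of Gzmb without either 1 ng/mL library and without 10 ng/mL library 1 (adjusted p up to 1 for each). Gzmb was lower at the higher dose by 1.54 on the log2 scale (adjusted p = 0.0349). The 2 doses share their control libraries, and their estimates against SCF were -3.46 at 1 ng/mL and -5.00 at 10 ng/mL for Gzmb, 7.29 and 7.98 for Mcpt2, 3.42 and 3.97 for Skil, and 1.15 and 1.12 for Mki67. For 829 of the 1042 called genes the 10 ng/mL estimate was the further from 0. Taken singly, 1 ng/mL against SCF called 522 genes and 10 ng/mL 941.

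Of all 10 libraries, the 2 with TGF-β and no SCF had the fewest counts in genes, 1295048 at 1 ng/mL and 1237382 at 10 ng/mL. Of their counted pairs 55.6% and 45.7% had no unique alignment, and satellite loci held 14.5% and 7.29% of their gene counts. Every left-out fit kept both. TGF-β without SCF was compared with IL-3 alone in the other 4 libraries, which share no sample with the main comparison. They hold 1 library per dose. There 391 genes passed (3.48%), 153 higher and 238 lower. Of the genes called in both settings 248 changed in the same direction and 2 in opposite directions, Gpx3 and Raly. With SCF, the call of Gpx3 was lost without SCF library 1 (adjusted p = 0.175) and that of Raly was kept in 2 of the 6 left-out fits. The difference between the effects with and without SCF passed for 33 genes (0.293%), of which 21 were also called with SCF; 13 differences were positive and 20 negative. The count ran from 9 to 30 with 1 library left out, and 9, 11, 17 and 19 were called without 10 ng/mL library 2, SCF library 1, 10 ng/mL library 1 and 1 ng/mL library 2.

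Ndrg1 fell with TGF-β in SCF and did not pass without it. It had 148 and 149 CPM with IL-3 alone and 158 and 104 CPM with 1 and 10 ng/mL TGF-β without SCF, a log2 change of -0.21 ± 0.19 (SE), so that the difference between the effects was -1.92 ± 0.27 (SE) (adjusted p = 0.00686), called in each of the 6 left-out fits. Ctsd, cathepsin D, had 1698 and 1702 CPM with IL-3 alone and 1932 and 1848 CPM with TGF-β without SCF, a change of 0.15 ± 0.12 (SE) beside the fall with SCF (difference -0.92 ± 0.15 (SE), adjusted p = 0.016; 0.0686 without SCF library 1 and 0.0564 without 10 ng/mL library 2). Lgals1 went further down without SCF, from 383 and 456 CPM to 36.5 and 41.96 CPM, and the difference was 1.49 ± 0.27 (SE) (adjusted p = 0.0338; 0.0695 and 0.0564 without the same libraries). Kif23 was the 1 mitosis gene whose effects differed (difference 1.86 ± 0.36 (SE), adjusted p = 0.0399); without SCF it had 21.2 and 20.4 CPM with IL-3 and 8.48 and 17.9 CPM with TGF-β. This call was lost in 5 of the 6 left-out fits (adjusted p = 0.0588 to 0.117) and in limma-voom (adjusted p = 0.103). For TGF-β without SCF, none of the 42 mitosis genes passed in edgeR's test, with 6 at an unadjusted p under 0.05, and 1 of the 42 replication genes did. Mcpt2 changed by 7.08 ± 0.28 (SE) without SCF and by 7.64 with it, a difference of 0.55 ± 0.41 (SE) that did not pass (adjusted p = 0.73).

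**Figure D5:**
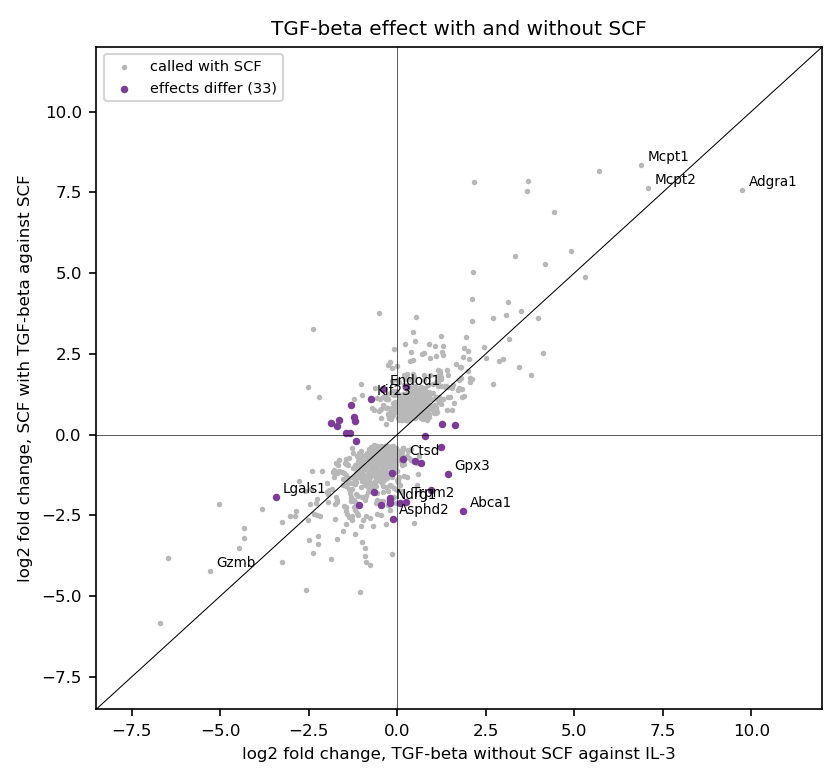
Each point is a gene called in the main comparison (grey) or 1 of the 33 whose effects differed (purple), with the log2 change from TGF-β without SCF on the x axis and with SCF on the y axis; the diagonal marks equal change. Mcpt2 and Gzmb lie near the diagonal, and Ndrg1, Asphd2, Trpm2 and Abca1 lie below it, lower with SCF.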

How the data were processed

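Total RNA of cultured mast cells was made into SmartSeq2 libraries with Nextera XT and sequenced as 2 x 38 bp pairs on a NextSeq500, per the labels' protocols. The submitters' processing notes name STAR, HTSeq and DESeq2 and the builds GRCm38 and mm10. The deposited file holds whole-number counts per Ensembl gene and library, not normalised, which the authors made; their strand setting is not given in the sources used here, so sense and antisense or overlapping genes cannot be told apart. The 5 rows that name no gene were dropped; the other rows, 49671 genes, hold 23.2% to 26.6% of counted pairs, and 49412 of them matched a GENCODE vM21 symbol (GRCm38). TMM scaling, filterByExpr and edgeR 4.0.16's quasi-likelihood test (R 4.3.3) were run on 1 model of 6 groups over 10 libraries (4 residual degrees of freedom). The contrast was the mean of both dose groups minus SCF, with Benjamini-Hochberg adjustment over all genes tested and a threshold of 0.05. SE is the size of the log2 change divided by the root of F. The script was tested on simulated data. Gene totals per library were 1628524 to 2323916, where 3 counts are 1.26 to 1.89 CPM; intervals cover counting error only. Alternatives used DESeq2 1.42.0, limma 3.58.1 (voom), other filters, a replicate block and left-out libraries.

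Genes named are the 20 largest rises and falls of at least 20 CPM with no overlap of groups (predicted genes left out), up to 6 called members by p of each of 46 lists (1603 genes, 1085 tested), the 10 most abundant called genes, and the largest differences between doses and between effects; 3 of these genes are not reported here. The comparison and the lists were chosen with earlier results of these data known. Promoters are RefSeq entries of GRCm38.p6; Mcpt2 and Skil are not shown.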

Additional observations from a re-analysis of the deposited data

Results flagged for a closer look

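Both genes that differed between the doses are given by their log2 change at 10 minus that at 1 ng/mL. The difference was 1.93 for Id3, higher at the higher dose, and -1.54 for Gzmb, lower at the higher dose. For Id3 the 2 libraries at 10 ng/mL were 328 and 167 CPM, both above every other library with SCF.

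For 15 genes of at least 20 CPM the TGF-β effect with SCF differed from that without it by the test of the difference, where the effect without SCF rests on 1 library per dose. Only Ndrg1 and Tnfsf14 kept this call in all 6 fits that left out 1 library with SCF. The other 13 lost it in at least 1: all but Rnf187 without SCF library 1 (adjusted p = 0.0597 to 0.334), and all but Atad3a and Gpx3 without 10 ng/mL library 2 (adjusted p = 0.0506 to 0.086). Kif23 and Ntng2 kept it in 1 fit and Trpm2 in none. The log2 change was lower with SCF for Abca1, a cholesterol exporter (-4.22), Btg2, an antiproliferative early gene (-2.67), Gpx3, a secreted glutathione peroxidase (-2.67), Asphd2 (-2.48), Trpm2 (-2.31), Ndrg1 (-1.92), Ntng2, a netrin G (-1.83), and Ctsd (-0.92). It was higher with SCF for Raly, an RNA-binding protein (2.23), Rnf187, a ubiquitin ligase (2.23), Tnfsf14, the cytokine LIGHT (2.10), Atad3a, a mitochondrial ATPase (1.99), Kif23 (1.86), Endod1 (1.82) and Lgals1 (1.49). Endod1 rose with SCF from 41.05 and 63.03 CPM to 126 to 154 CPM, while without SCF it had 36.3 and 25.96 CPM with IL-3 and 16.97 and 33.4 CPM with TGF-β. For Rnf187 the SCF libraries themselves lay apart, at 230.3 and 86.4 CPM.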

How the results depend on the processing

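Of the alternatives run, the fit with DESeq2 size factors, limma-voom, the 10 CPM filter and leaving out ribosomal RNA and satellite loci kept both counts of called genes within 1.5 times. DESeq2 called 214 higher and 318 lower, 1 ng/mL alone 213 and 309, the first libraries alone 251 and 386, and a 2-fold minimum left 221 and 250. With 1 library left out the counts ran from 206 to 403 higher and 310 to 540 lower, those between doses from 0 to 5, and those of differing effects from 9 to 30. Between doses DESeq2, limma-voom and the 10 CPM filter gave 0, the 6 libraries in 3 groups 1, no filter 8 and the first libraries alone 8; differing effects numbered 125 with no filter and 69 with the first libraries alone. The 6-library fits could not test differing effects. Rnf187 reversed to -0.16 without SCF replicate 2, with 1.25 as the highest left-out value. It also reversed to -0.0588 without library 2 of each group with SCF. The cause of these reversals was not tested.

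Same-numbered libraries with SCF deviated together (correlations of 0.20 to 0.23), while IL-3 libraries did not follow (-0.003 to 0.02); 2 numbers are too few to treat as pairs. With the replicate number as a block, 651 genes were higher and 802 lower, all 1042 calls remained, 5 genes differed between doses and 102 between effects. The block in the 6 libraries alone, chosen after seeing the data, gave 987, 1171 and 17. Gene totals of 1628524 to 2323916 counts and 2 controls limit what can be called among low genes.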

Other observations

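Lipid genes changed in both directions. Cyp4a12a, a fatty acid hydroxylase, fell from 59.1 and 25.2 CPM to 3.801 to 14.3 CPM (log2 change -2.43 ± 0.34 (SE)). Of its 38-base stretches 57.0% are shared with other genes, most often Cyp4a12b. Me1, malic enzyme, which supplies NADPH, rose from 7.51 and 6.303 CPM to 16.8 to 31.7 CPM (log2 change 1.71 ± 0.35 (SE)), and Smpd5, a sphingomyelinase, from 2.002 and 5.04 CPM to 16.8 to 26.7 CPM. Of 30 fatty acid and lipid genes 1 rose and 5 fell; the 5 became 2 without SCF library 1, 3 without SCF library 2 and 3 without 10 ng/mL library 2.

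Of 11 axon guidance genes tested 2 rose and 2 fell, and of 26 actin and contractile genes 2 rose and 2 fell, with 13 estimates of each sign. Plxna2, a semaphorin receptor, rose from 11.01 and 6.93 CPM to 20.2 to 33.7 CPM (log2 change 1.58 ± 0.30 (SE)), and Sema4a, a semaphorin, fell from 12.01 and 12.6 CPM to 0.447 to 3.56 CPM (log2 change -2.46 ± 0.44 (SE)). Pdlim7, which binds actin filaments, rose by 1.33 ± 0.26 (SE) and Myh9, non-muscle myosin heavy chain, by 0.67 ± 0.13 (SE); both calls were lost without SCF library 1 (adjusted p = 0.072 and 0.0762). Cnn2, a calponin, fell by 0.60 ± 0.12 (SE) (adjusted p = 0.0965 without SCF library 2) and Tns3, a tensin of focal adhesions, by 1.06 ± 0.23 (SE) (adjusted p = 0.0995 without SCF library 1). Sema4d rose by 0.45, a call lost without either SCF library, and the call of Nrp1 (-2.52) was kept in 1 of the 6 left-out fits. Thsd4, a fibrillin-binding matrix protein, rose from 4.005 and 5.67 CPM to 22.8 to 43.3 CPM. Neat1, a long non-coding RNA of nuclear paraspeckles, fell from 1098 and 1041 CPM to 592 to 787 CPM (log2 change -0.68 ± 0.11 (SE), adjusted p = 6.19e-04), and the stress gene Gadd45g fell by 1.49 ± 0.17 (SE); these were the 2 of 11 genes of the RNA quality and stress list that changed.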
